A study of Mus musculus with 10 samples.

Results

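RUNX1 binding was examined at the genes of its closest partners: Runx2 and Runx3, the other RUNX family genes, and Cbfb, which encodes their shared binding partner. The members were the sites of RUNX1 chromatin immunoprecipitation with sequencing (ChIP-seq) whose summit lay in 1 of 3 windows, each holding a gene and flanks of about 50 kb. A site is a stretch of the genome formed by merging the overlapping peaks of 6 deposited peak lists. By this rule 47 of 64286 sites were members, of which 35 fell in the Runx2 window on chromosome 17, 5 in the Runx3 window on chromosome 4 and 7 in the Cbfb window on chromosome 8. The windows span 0.43, 0.17 and 0.16 Mb. Sites were numbered within each window by position.

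The cells were mouse large biliary epithelial (MLE) cells, cholangiocytes that line large bile ducts. Near-confluent cells received TGFβ at 10 ng/mL overnight (3 ChIP libraries, called T1, T2 and T3 for TGFβ replicates 1 to 3) or vehicle (3 ChIP libraries, called V1, V2 and V3), and no genetic change is named for either group. T1, T2, V1 and V2 came from batch 1, and T3 and V3 from batch 2. By batch and title wording the libraries form 3 pairs: T1 with V1, T2 with V2 and T3 with V3. Nothing in the labels says if libraries of the same treatment are separate cultures, so p-values measure the spread between libraries, which may be technical. Expression was not analysed here, and the marker genes of the cell type could not be checked in these lists. A polyclonal antibody to RUNX1 was used, and its reactivity to RUNX2 and RUNX3 is not given in the sources used here.

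RUNX proteins are transcription factors that bind DNA through the Runt domain, and CBFβ, which does not touch DNA itself, binds that domain and raises its affinity. The core RUNX motif is TGTGGT, with TGCGGT as a common form. RUNX2 is known for bone formation and RUNX3 for T cells, sensory neurons and epithelia of the gut. RUNX genes are transcribed from a distal and a proximal promoter, family members are known to regulate each other's genes, and RUNX proteins work with SMADs, the transcription factors of the TGFβ pathway.

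The sequence of the RUNX gene promoters is shown first, because some of them carry the motif that RUNX proteins themselves recognise. RefSeq sequences of GRCm38.p6, from 250 bases before to 50 bases after the annotated start, held 4 promoters of the 3 genes: 1 for Runx2, 2 for Runx3 and 1 for Cbfb. The peak lists use another build, GRCm39, so promoters and peaks were not placed on one map. The motifs TGTGGT and TGCGGT, searched on both strands (ACCACA and ACCGCA on the other), were found in 2 of these 4 promoters, and in 22.4% of the 32851 promoters in the table. The Runx2 promoter held 4 matches, a number of at least 3 being reached by 0.289% of promoters. The first Runx3 promoter held 2, and at least 2 were found in 2.86%.

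The longest stretch common to a promoter of each of Runx1, Runx2 and Runx3, looked for after the values were seen, was 18 bases long, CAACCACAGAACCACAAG, and contains ACCACA in tandem. It was found, on either strand, in 4 of the 32851 promoters: those of Runx1, Runx2 and Runx3, and that of Gm16225, whose window overlaps that of Runx3. It begins 27 bases from the start of Runx1 and 22 bases from the start of Runx2, counting the start as base 1. In Runx3 it begins at base -136. In the following 30-base stretches the capitals mark the shared bases, each read 5′ to 3′ on the strand of the gene, from chr16:92826025-92826054 (minus strand), chr17:44814583-44814612 (minus strand) and chr4:135120503-135120532 (plus strand) of GRCm38.p6.
Runx1: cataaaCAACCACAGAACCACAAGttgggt
Runx2: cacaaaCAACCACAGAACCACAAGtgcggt
Runx3: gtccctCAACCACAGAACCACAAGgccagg

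The 250 bases before the start are printed for Runx2 (chr17:44814628-44814877, minus strand), for the first of the 2 Runx3 starts (chr4:135120395-135120644, plus strand) and for Cbfb (chr8:105170424-105170673, plus strand), all of GRCm38.p6, with matches to the RUNX motif in capitals. In these 250 bases Runx2 has a match from -80 to -75, the first Runx3 promoter has the tandem pair, and Cbfb has none. Runx2 has the tandem pair too, but after its start, at bases 24 to 29 and 32 to 37, with a further match from 40 to 45. The second Runx3 promoter, not printed, held 0 matches.
Runx2: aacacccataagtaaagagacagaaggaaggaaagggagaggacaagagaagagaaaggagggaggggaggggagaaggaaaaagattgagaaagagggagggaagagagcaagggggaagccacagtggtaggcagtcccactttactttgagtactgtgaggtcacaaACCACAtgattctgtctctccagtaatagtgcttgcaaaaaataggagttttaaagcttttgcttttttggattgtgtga
Runx3: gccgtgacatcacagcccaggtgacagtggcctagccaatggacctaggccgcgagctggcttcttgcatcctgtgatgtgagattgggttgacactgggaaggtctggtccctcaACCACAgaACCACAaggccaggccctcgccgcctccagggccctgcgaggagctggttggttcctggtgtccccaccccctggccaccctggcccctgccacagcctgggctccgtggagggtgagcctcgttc
Cbfb: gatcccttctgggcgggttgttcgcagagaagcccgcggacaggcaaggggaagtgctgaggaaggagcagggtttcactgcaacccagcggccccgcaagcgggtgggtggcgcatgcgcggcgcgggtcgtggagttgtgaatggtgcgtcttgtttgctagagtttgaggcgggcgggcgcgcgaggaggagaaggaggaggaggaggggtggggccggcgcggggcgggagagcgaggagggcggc

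Each peak list gives, for every peak, the fold enrichment at its summit, a ratio of fragment pileup to local background that belongs to its own list. The percentile of a peak is its rank by −log10 q within that list. List lengths ran from 14733 to 42050 peaks, and were greater with TGFβ in each of the 3 pairs. From fold and p together the number of overlapping fragments at a summit and the background could be recovered. The lowest background of a list was 10.4 to 11.8 fragments, and at that background the weakest called peaks had 21 to 25 fragments, a fold of 1.91 to 2.06. Where the background is lowest, a site without a call therefore has a signal under about that level, not a signal of 0. Where the background is higher, an uncalled site can hold more fragments. At Runx2 site 8, a weak peak of T1 had 33 fragments over a background of 17.2, a fold of 1.87. Over called peaks of the Runx2 window the median background was 1.30 and 1.22 times the lowest of the list in T3 and V3. Intervals from read counts cannot be given, since the lists state no read totals.

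The Runx2 window, the longest of the 3, held 35 of the 47 sites. Of these, 34 were called in at least 1 TGFβ list (97.1%, against 85.4% of all sites) and 13 in at least 1 vehicle list (37.1%, against 48.4% of all sites). In batch 1, T1 and T2 had 20 and 32 sites called, and V1 and V2 had 6 and 10. In batch 2, T3 had 4 and V3 had 3. TGFβ was higher in 3 of 3 pairs, while the ranges of the groups overlapped because of the low batch 2 values. The means were 18.7 ± 14.05 (SD, n = 3) with TGFβ and 6.33 ± 3.51 (SD, n = 3) with vehicle, a difference of 12.3 sites that did not pass 0.05 (two-sided exact permutation p = 0.3). Within batches it was the most extreme labeling (exact permutation p = 0.167, the smallest that 12 labelings allow).

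List length moved with this count. Per 10000 peaks of a list, the Runx2 window held 6.85 and 7.61 peaks in T1 and T2, 6.11 and 5.56 in V1 and V2, and 3.19 and 2.46 in T3 and V3. When every list was limited to its best 14733 peaks, the Runx2 sites numbered 9, 8 and 4 in T1, T2 and T3, and 6, 5 and 3 in V1, V2 and V3, a difference of 2.33. TGFβ stayed higher in each pair, and the difference was less than in the full lists. Leaving out 1 library moved the full-list difference most without T2 (5.67) and without T3 (19.7).

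The window held more peaks per Mb than the rest of its chromosome in batch 1. T1 and T2 had 53.5 and 74.4 peaks per Mb in the Runx2 window, against 17.7 and 21.6 over all of chromosome 17. V1 and V2 had 20.9 and 27.9 against 8.76 and 11.9. In batch 2 the values were close, at 13.95 against 11.6 for TGFβ and 9.30 against 9.99 for vehicle. Of the 35 Runx2 sites, 5 were called in a batch 2 list (14.3%, against 40.2% of all sites).

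**Figure D1:**
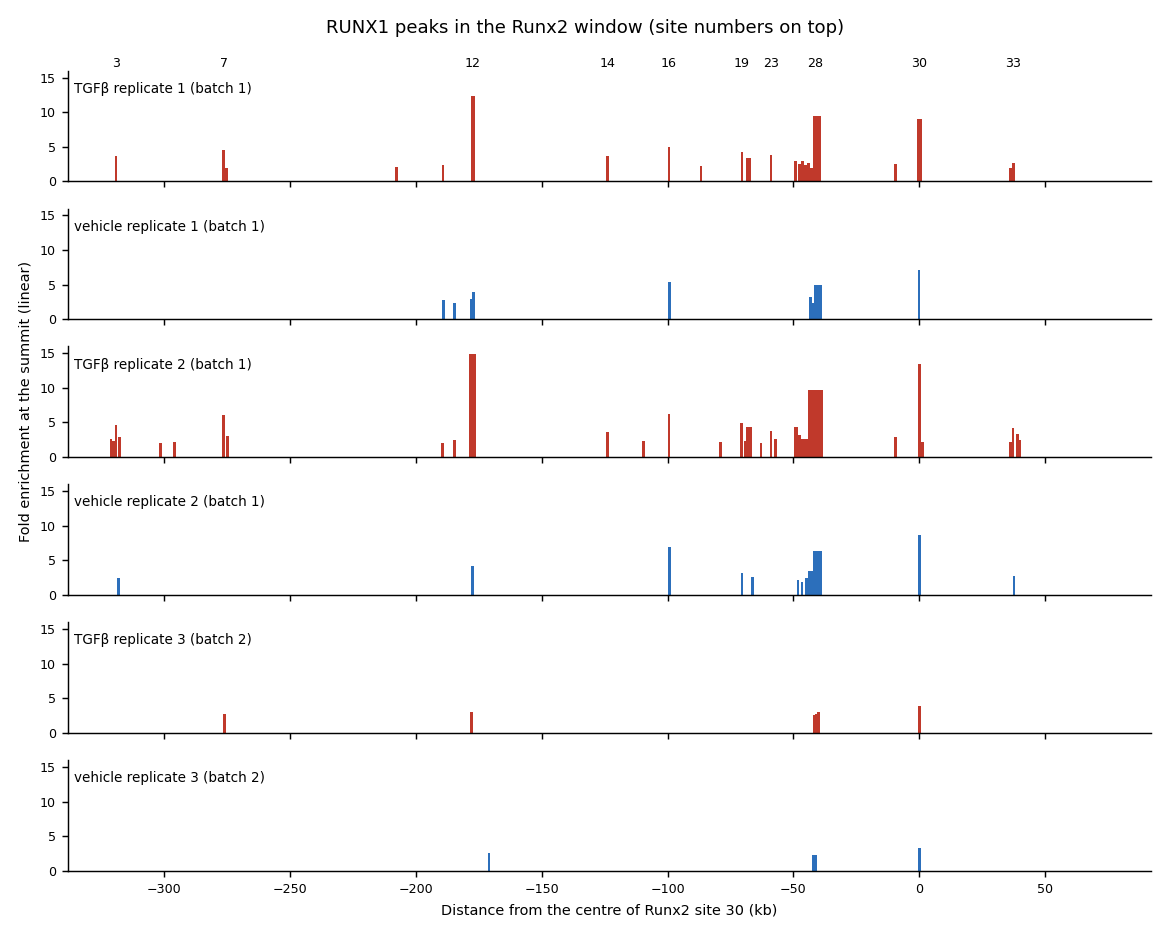
RUNX1 peaks in the Runx2 window in the 6 libraries, as distance in kb from the centre of site 30 (x axis) and fold enrichment at the summit (y axis, linear). Each bar is a called peak, with narrow peaks widened to stay visible. Sites 28 and 30 are present in all 6 libraries, and site 12 reaches 12.4 and 14.9 in T1 and T2 against 3.98 and 4.18 in V1 and V2.

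Calls in 1 list made up 15 of the 35 Runx2 sites (over the 3 genes 20 of 47, against 50% of all sites). The 15 were weak and short, with folds from 2.01 to 3.33 and lengths from 239 to 509 bp. Most of the 15 were called in T2 alone, the longest list with 42050 peaks. The 20 Runx2 sites called in 2 or more lists had a highest fold between 2.19 and 14.9, with a median of 4.01. Over the 3 genes 29 of 47 sites were called in at least 1 TGFβ and no vehicle list, where 51.6% of all sites were. Most of these 29, too, were called in T2 alone. In at least 1 vehicle and no TGFβ list 1 of 47 was called, where 14.6% of all sites were. This was Runx2 site 13, called in V3 at a fold of 2.58.

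Sites called in all 6 lists were 3 of 47 (6.36% of all sites are), namely Runx2 sites 28 and 30 and Cbfb site 2. Without V3 they numbered 6, and with windows of 200 bp on the summits 1. Runx2 site 30 spans 45087129 to 45089096 on chromosome 17 and had the highest median percentile in the window, 94.4. Its fold was 8.94, 13.5 and 3.81 in T1, T2 and T3, and 7.11, 8.63 and 3.28 in V1, V2 and V3. The pileup behind those folds was 115, 157 and 43 fragments with TGFβ, and 82, 106 and 41 with vehicle. Both batch 2 values lie under all batch 1 values, and within each pair the TGFβ value is higher, by 1.26, 1.56 and 1.16 times. Such ratios are near those of the lists as a whole: over all sites called in both lists of a pair the median ratio was 1.41, 1.52 and 1.11 in pairs 1, 2 and 3. The summits of 5 lists lay between 45087927 and 45087972, while that of V3 was at 45088286.

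Runx2 site 28 is the longest member, 6081 bp from 45043872 to 45049952. Its fold was 9.40, 9.64 and 2.99 in T1, T2 and T3, and 4.90, 6.42 and 2.31 in V1, V2 and V3. The ratio in pairs 1, 2 and 3 was 1.92, 1.501 and 1.29. The called length was 4628, 5962 and 1497 bp in T1, T2 and T3, and 3953, 5212 and 770 bp in V1, V2 and V3. It was longer with TGFβ in 3 of 3 pairs, although T1 was shorter than V2, a library of the same batch. It was also longer in every batch 1 list than in either batch 2 list. Over the whole lists, too, peaks were shorter in batch 2, with a median width of 343 and 319 bp in T3 and V3 and of 523 to 735 bp in the batch 1 lists. The strongest summits of 5 lists lay from 45048106 to 45048168. The list of V3 had no peak there, so its fold is that of another summit. It had 2 peaks at lower coordinates, with summits at 45046161 and 45047025, beside summits at 45046256 and 45047004 in T3. The background at the strongest summit was 16.4 and 17.2 fragments in T3 and V3, above the 10.5 and 11.8 that were lowest in those lists, and its part in the batch difference was not tested.

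Runx2 site 12, from 44909297 to 44911803, was singled out after its values were seen, since it had the highest fold in the 3 windows. T1 and T2 had folds of 12.4 and 14.9 there, from 152 and 169 fragments, both in the 97.3 percentile of their lists. V1 and V2 had folds of 3.98 and 4.18, from 46 and 52 fragments, in the 71.4 and 72.9 percentiles. T3 had a fold of 2.99 and V3 had no call. The ratio was 3.12 in pair 1, above 96.4% of the 12009 sites called in both lists of that pair, and 3.57 in pair 2, above 97.4% of 17316. It was the strongest Runx2 site in T1 and T2, whereas site 30 was the strongest in the other 4 lists. The called length also differed, at 1787 and 2507 bp in T1 and T2 and 1275 and 1436 bp in V1 and V2. The batch 2 summit, at 44910385, lay apart from those of the batch 1 lists, from 44910828 to 44911057. The T3 peak ended at 44910489, so neither batch 2 list had a call at those summits, and the T3 fold is that of another summit. V1 had a further, weaker peak that overlapped the T3 peak, with its summit at 44909904 and a fold of 2.91.

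Runx2 site 16, from 44988159 to 44989188, also singled out after its values were seen, went the other way. Its fold was 5.03 and 6.21 in T1 and T2, and 5.41 and 6.91 in V1 and V2, with no call in batch 2. The ratios of 0.929 and 0.899 lay above those of 8.52% and 4.23% of the sites called in both lists of pairs 1 and 2. Its summits fell within 48 bp of each other in the 4 lists. Runx2 sites called in both lists thus ranged from a ratio of 0.852 (site 10) to 3.12 (site 12) in pair 1, and from 0.899 (site 16) to 3.57 (site 12) in pair 2. Over all Runx2 sites called in both lists of a pair, the fold was higher with TGFβ at 3 of 5 in pair 1, 9 of 10 in pair 2 and 2 of 2 in pair 3. The medians were 1.26, 1.52 and 1.23, and among all sites the fold was higher with TGFβ in 87.1%, 91.4% and 70.9% in these pairs. Some of the Runx2 ratios compare different summits of a merged site. In pair 2 the summit of site 21 was at 45020683 in T2 and at 45021682 in V2, and summits differed at sites 26 and 27 as well. In pair 3 they differed at site 28.

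**Figure D2:**
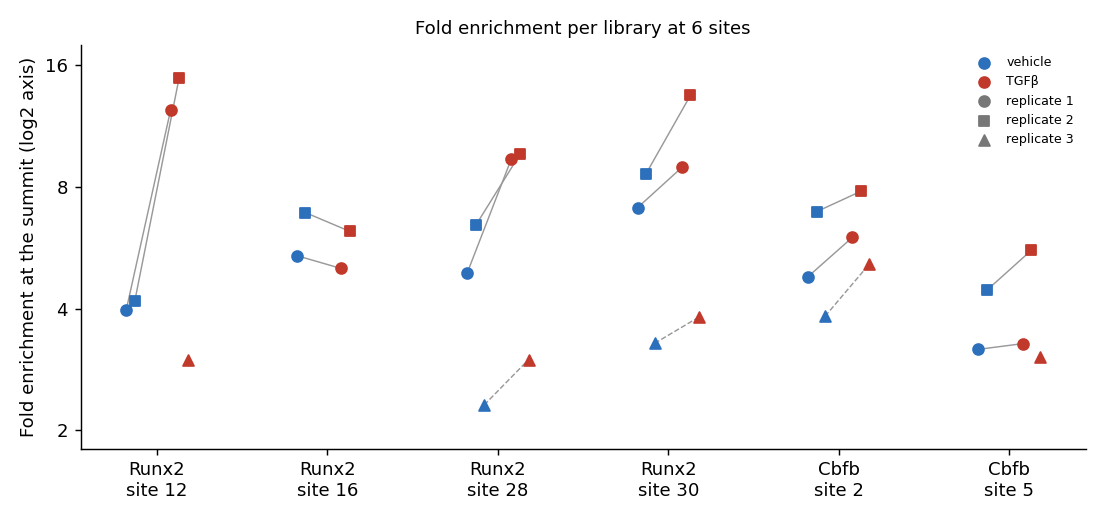
Fold enrichment at the summit (y axis, log2 axis) in each library at 6 sites (x axis), with vehicle in blue and TGFβ in red; grey lines join libraries of a pair, dashed for batch 2, and a missing point means no call. Lines rise steeply at Runx2 site 12 and fall slightly at Runx2 site 16, and batch 2 points, where called, lie lowest at the Runx2 sites.

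Of the 47 sites, 1 was called in each TGFβ list and without a vehicle call, against 0.619% of all sites, and in all vehicle and no TGFβ lists 0 of 47, against 0.0109%. The site was Runx2 site 7, from 44811057 to 44812401. Its fold was 4.54, 6.14 and 2.68 in T1, T2 and T3, from 55, 69 and 30 fragments. The weakest called peak of a vehicle list at its lowest background had 23 to 25 fragments, so the 30 fragments of T3 are not far above what a vehicle list could call. The summit of T3 lay 1031 bp from that of T2, while those of T1 and T2 lay 247 bp apart. With windows of 200 bp on the summits, 0 such sites remained, and at a −log10 q of at least 5 also 0. Without T3 there were 10.

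Within batch 1, 10 of 47 sites were called in both TGFβ lists and neither vehicle list (16% of all sites), and 0 in both vehicle lists and neither TGFβ list (0.204% of all sites). Runx2 held 8 of these 10, Runx3 held 2 and Cbfb 0. In lists of equal length 2 of 47 met the same rule, Runx2 sites 3 and 7. Without T1, when 1 TGFβ list of batch 1 was enough, the number was 26. By the mean percentile over the lists that called them, the leading Runx2 sites of the 8 were sites 3, 7 and 23, at 65.2, 64.0 and 60.0. The mean of site 7 includes T3, and in T1 and T2 site 7 (percentiles 72.1 and 79.5) ranked above site 3 (59.8 and 70.6). Site 3, from 44768575 to 44769307, lay 18.6 to 19.3 kb from the low end of the window, inside the flank of about 50 kb on that side. In T1 and T2, site 3 had folds of 3.65 and 4.68, and site 23, from 45028717 to 45029792, had folds of 3.81 and 3.79. Their pileups of 46 and 59 fragments at site 3, and of 46 in both lists at site 23, compare with 23 and 21 for the weakest peaks called in these lists at their lowest background.

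Sites 32 to 35, described here after their values were seen, lay close to where the window places the start of Runx2. The gene is on the minus strand per RefSeq, and with flanks of about 50 kb its start lies about 50 kb from the high end of the window. Sites 32, 33, 34 and 35 lay between 52.0 and 55.8 kb from that end. Site 33 had folds of 2.59 and 4.20 in T1 and T2 and of 2.68 in V2, with summits from 45125666 to 45125713. Site 34 (fold 3.33) and site 35 (fold 2.43) were called in T2 alone, and site 32 in T1 and T2 at folds of 1.93 and 2.19. All lists of batch 2 lacked these 4 sites. The stronger sites 12, 28 and 30 lay 90.9 kb or more from the high end. The promoter sequences held 1 Runx2 promoter, so a second start was not placed. The distance of sites 12, 28 and 30 from such a start is not known here. A group of 6 sites with gaps of at most 5 kb, sites 19 to 24, lay in 14.1 kb from 45016998 to 45031085. Only T2 called all 6, while T1 called 3, V2 called 2 and V1, T3 and V3 called 0. Sites 20, 22 and 24 were called in T2 alone, at folds of 2.35, 2.01 and 2.54.

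Covered length, the summed length of a list's peaks in the window, followed the number of sites at Runx2. It was 20341, 30438 and 3414 bp in T1, T2 and T3, and 7217, 12191 and 1890 bp in V1, V2 and V3. The means were 18064 ± 13655 bp with TGFβ and 7099 ± 5152 bp with vehicle (SD, n = 3, two-sided exact permutation p = 0.3). TGFβ was higher in 3 of 3 pairs, by 2.82, 2.497 and 1.81 times. The mean width of a Runx2 peak was 884, 951 and 569 bp with TGFβ and 802, 1016 and 472.5 bp with vehicle, a difference of 38.1 bp (exact permutation p = 0.8). Covered length thus moved with the number of calls more than with their width.

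**Figure D3:**
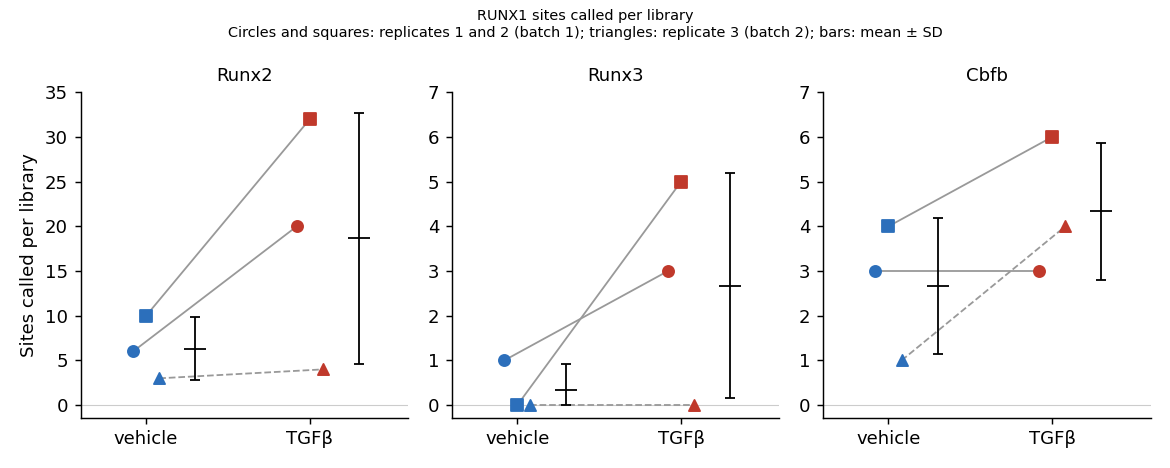
Number of sites called per library (y axis) in the Runx2, Runx3 and Cbfb windows, for vehicle (blue) and TGFβ (red); circles and squares are replicates 1 and 2 from batch 1, triangles are replicate 3 from batch 2, lines join pairs, and black bars give mean ± SD (n = 3, cut at 0). At Runx2 all 3 lines rise, from 6, 10 and 3 to 20, 32 and 4, at Runx3 the batch 2 libraries are at 0, and at Cbfb pair 1 is level at 3.

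The Runx3 window carried few RUNX1 peaks, and none in batch 2. T1, T2 and T3 had 3, 5 and 0 sites called, and V1, V2 and V3 had 1, 0 and 0. The means were 2.67 ± 2.52 and 0.333 ± 0.577 (SD, n = 3), a difference of 2.33 sites (two-sided exact permutation p = 0.4, and 0.333 within batches). The batch 2 libraries tied at 0, so batch 1 alone gives the direction there. In lists of equal length T1 and V1 had 1 site each, the other 4 lists had 0, and the difference was 0. Leaving out T2 gave a difference of 1.17, and leaving out T3 gave 3.67.

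Peaks on chromosome 4 as a whole were also fewer in the vehicle and batch 2 lists. In T1 and T2 the window held 17.6 and 29.4 peaks per Mb, against 9.28 and 12.2 over chromosome 4. In batch 2 the whole chromosome had 2.85 peaks per Mb with TGFβ and 1.47 with vehicle, and the window is 0.17 Mb long. V1 and V2 had 5.88 and 0 in the window, against 3.65 and 6.04. Covered length was 1286, 2357 and 0 bp in T1, T2 and T3, and 273, 0 and 0 bp in V1, V2 and V3 (exact permutation p = 0.4).

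The 2 Runx3 sites called in both TGFβ lists of batch 1 and in no other list were narrow, with summits close together. Site 4, from 134918733 to 134919436, had the highest median percentile of the window, 60.1. Its folds were 3.65 and 4.12, from 44 and 46 fragments, and its summits lay 15 bp apart. Site 4 lay 40.6 to 41.3 kb from the high end of the window, inside the flank of about 50 kb on that side. Site 3, from 134847616 to 134848116, had folds of 3.16 and 4.38 from 38 and 49 fragments, and its summits, at 134847858 and 134847852, lay 6 bp apart. Runx3 is on the plus strand per RefSeq, and site 3 lay 57.6 to 58.1 kb from the low end of the window, near where the flank of about 50 kb ends and the gene begins. No list called a peak in the 70.6 kb between sites 3 and 4, and RefSeq places the other Runx3 start 31.9 kb downstream of the first, a distance within GRCm38.p6. The strongest Runx3 peak, a fold of 4.38, reached the 64.7 percentile of its list.

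Runx3 site 1, from 134794074 to 134794877, was the only one called with vehicle. It had folds of 2.35 and 3.68 in T1 and T2 and of 2.83 in V1, so the vehicle value lies between the TGFβ values. Sites 2 and 5 were called in T2 alone, at folds of 3.24 and 2.45.

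**Figure D4:**
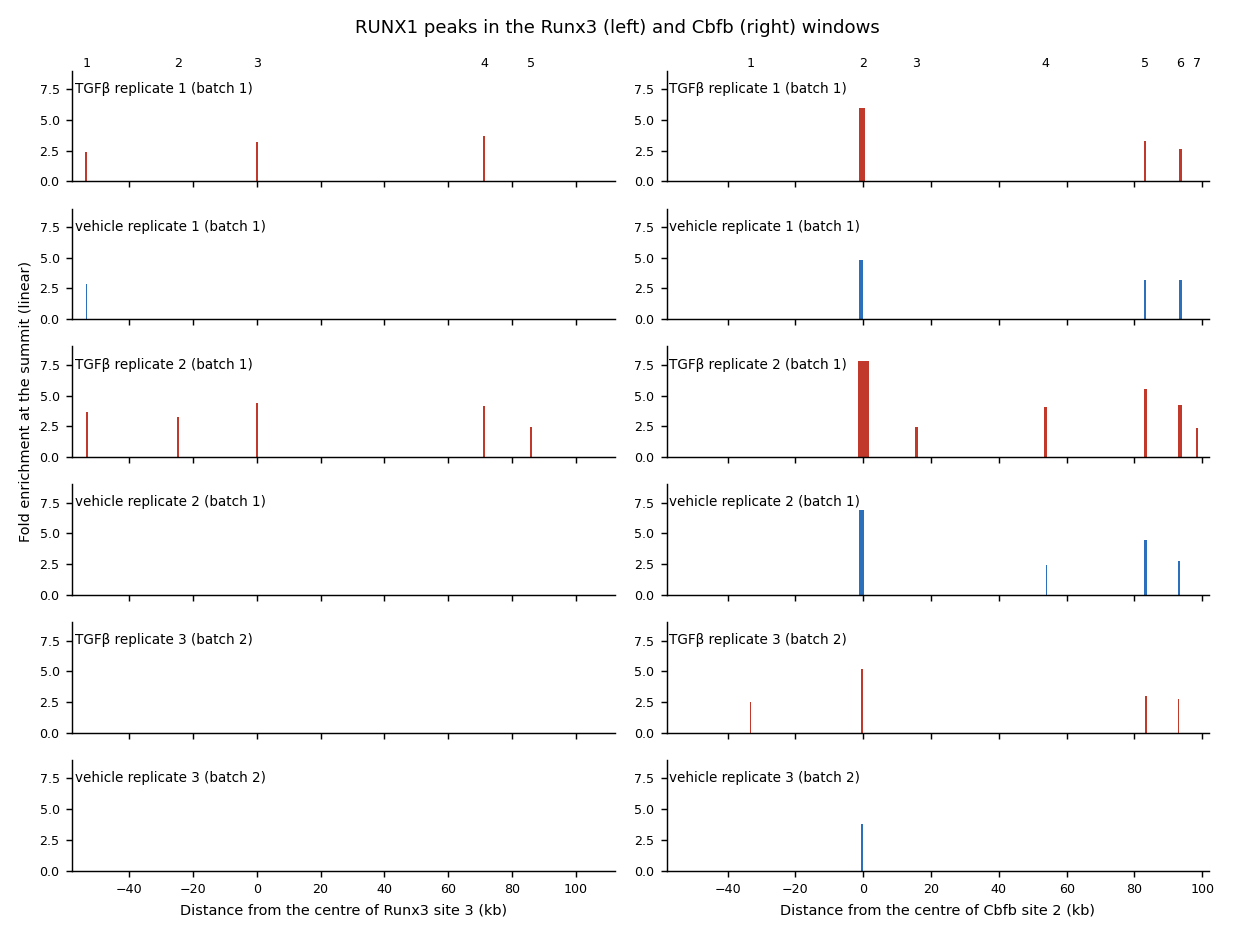
RUNX1 peaks in the Runx3 window (left) and the Cbfb window (right) in the 6 libraries, as distance in kb from the centre of Runx3 site 3 and Cbfb site 2 (x axis) and fold enrichment at the summit (y axis, linear). Bars are called peaks, with narrow peaks widened to stay visible: Cbfb site 2 appears in all 6 libraries, while Runx3 has no peak in V2, T3 and V3.

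Cbfb, the gene of the shared partner, had 1 site called in all libraries. Site 2, from 105896383 to 105899694 on chromosome 8, had folds of 5.999, 7.80 and 5.15 in T1, T2 and T3, from 73, 88 and 60 fragments. In V1, V2 and V3 the folds were 4.80, 6.95 and 3.83, from 55, 85 and 48 fragments. The groups overlapped, and within batch 1 T1 lay under V2. TGFβ was higher in 3 of 3 pairs, which within batch 1 rest on title wording, and the ratios were 1.25, 1.12 and 1.35. In pairs 1 and 2 these lay below the median of all sites called in both lists (1.41 and 1.52), and in pair 3 above it (1.11). It was the strongest Cbfb site in every list, in percentiles from 82.9 to 94.2.

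At Cbfb site 2 batch 1 summits fell between 105897315 and 105897378, within 63 bp, while those of T3 and V3 were at 105897568 and 105897704. The called length was 1693, 3312 and 770 bp in T1, T2 and T3 and 1259, 1454 and 657 bp in V1, V2 and V3, shortest in batch 2, as peaks are over the whole lists. The site lay 56.4 to 59.7 kb from the low end of the window. Cbfb is on the plus strand per RefSeq, so the site is near where the flank of about 50 kb ends and the gene begins. The leading site was the same in all 6 lists, where at Runx2 it was site 12 in 2 lists and site 30 in 4.

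The number of Cbfb sites did not differ beyond the spread between libraries. T1, T2 and T3 had 3, 6 and 4 sites called, and V1, V2 and V3 had 3, 4 and 1. The means were 4.33 ± 1.53 and 2.67 ± 1.53 (SD, n = 3), a difference of 1.67 sites that is close to the spread within each group (two-sided exact permutation p = 0.5, and 0.5 within batches). Pair 1 was tied, and TGFβ was higher in the other 2 pairs. In lists of equal length T1, T2 and T3 had 2, 2 and 4 sites, and V1, V2 and V3 had 3, 3 and 1, so both batch 1 pairs then had more sites with vehicle, and the difference was 0.333. Leaving out T2 or V3 gave 0.833.

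Further Cbfb sites lay toward the high end of the window. Site 5, from 105980803 to 105981794, was called in all lists but V3, with folds of 3.27, 5.57 and 3.03 in T1, T2 and T3 and 3.17 and 4.44 in V1 and V2. Site 6, from 105990884 to 105992041, was called in the same 5 lists, with folds of 2.61, 4.21 and 2.77 with TGFβ and 3.16 and 2.74 with vehicle, so that pair 1 and pair 2 differed in direction. Site 4, from 105951488 to 105952258, had folds of 4.03 and 2.42 in T2 and V2. Sites 1, 3 and 7 were called in 1 list each, at folds of 2.37 to 2.51. Sites 5 and 6 lay 7.96 to 19.2 kb from the high end, inside the flank of about 50 kb on that side. Covered length at Cbfb was 3052, 7097 and 2020 bp with TGFβ and 2331, 3287 and 657 bp with vehicle, higher in 3 of 3 pairs (exact permutation p = 0.5). Within batch 1, however, T1 (3052 bp) lay under V2 (3287 bp).

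Over the whole lists the median fold was 2.60 and 2.42 in T3 and V3 and 3.08 to 3.33 in the batch 1 lists. At Runx2, the batch 2 folds at sites 28 and 30 were under all batch 1 folds of either treatment, and the batch 2 lists called 4 and 3 sites where batch 1 lists called 6 to 32. At Cbfb site 2, the TGFβ value of batch 2 (5.15) lay above that of V1 (4.80), and in its own list it was in the 94.2 percentile. Of the Cbfb sites 4 of 7, and of the Runx3 sites 0 of 5, were called in batch 2, against 40.2% of all sites, and these numbers are too small to read a difference between the genes from them. With 1 library per treatment in batch 2, no test within that batch is possible.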

How the data were processed

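The files are 6 peak lists, 1 per RUNX1 ChIP library, and 4 input libraries were not analysed here. The submitters' processing notes name DRAGEN, Trimmomatic, Bowtie2 2.5.2 and MACS2, and the build as mm39 and GRCm39. Peak caller settings and the control library are not given in the sources used here. For every peak the authors deposited a fold ratio, −log10 p, −log10 q and a score, and the lowest −log10 q lay just above 1 in each list.

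Windows were chromosome 17 from 44.75 to 45.18 Mb, chromosome 4 from 134.79 to 134.96 Mb and chromosome 8 from 105.84 to 106 Mb. Members, lists and rules were chosen with earlier results of these data known. Peaks of the 6 lists overlapping by at least 1 bp were merged. At a site the peak with the highest −log10 q stands for its list. Called sites and covered length were compared by two-sided exact permutation over 20 labelings (smallest p 0.1) and within batches over 12. Fold is described and not tested. The pileup at a summit was recovered as a whole number from fold, as (pileup + 1)/(background + 1), and the Poisson tail p. It gave back the deposited −log10 p within 0.001 for 99.6% to 99.9% of peaks per list. Code (Python 3.11.15, scipy 1.17.1) was tested on simulated data.

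Sites named in full were those called in all 6 lists, those in all lists of 1 treatment and none of the other, up to 3 per gene of those in both batch 1 lists of 1 treatment and neither of the other, and the site with the highest median percentile. All others named were chosen after their values were seen, which is not said at each place. These include all further sites of Runx3 and Cbfb and the Runx2 sites near its start. They also include Runx2 sites 8, 10, 13 and 19 to 24, apart from site 23, which met the rule for batch 1. The gene table covers GRCm38.p6, so gene parts, sequences at peaks, the planned list of RUNX co-regulators and genes of similar pattern were not analysed here.

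Libraries were paired by batch and title wording. Over all sites, the libraries of pairs 1, 2 and 3 deviated together from their treatment's mean calls (r = 0.135, 0.225 and 0.418). Within batch 1, TGFβ replicate 1 with vehicle replicate 2 (0.243) and TGFβ replicate 2 with vehicle replicate 1 (0.179) both exceeded pair 1. Between batches every value was negative (-0.356 to -0.241). The values thus follow batch and cannot decide the pairing within batch 1. Alternatives were a −log10 q of at least 5, equal list length (the best peaks by −log10 p), windows narrowed by 25 kb on each side, peaks within 500 bp merged, 200 bp summit windows, the pairing, batch 1 only, leaving out each library, and, for fold, the mean over a list's peaks at a site. Averaging the batch 1 libraries of a treatment was added after the data were seen.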

Additional observations from a re-analysis of the deposited data

How the results depend on the processing

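The difference in sites called (12.3 at Runx2, 2.33 at Runx3 and 1.67 at Cbfb) kept its direction under the alternatives run, except at Runx3 with equal list length, where it was 0. Other values that moved by over 1.5 times were, at Runx2, 8.0 at a −log10 q of at least 5, 7.67 with peaks within 500 bp merged and 2.33 with equal list length, and at Cbfb 1.0 at a −log10 q of at least 5, 1.0 in batch 1 only and 0.333 with windows narrowed by 25 kb or equal list length. Leaving out 1 library gave 5.67 (TGFβ replicate 2) to 19.7 (TGFβ replicate 3) at Runx2, 1.17 to 3.67 (the same libraries) at Runx3 and 0.833 to 2.33 at Cbfb. For covered length it gave 4778 to 18290 bp, 552 to 1730 bp and 444 to 2983 bp, and equal list length gave 3482, 84.3 and 850 bp. With the replicate block the differences of 12.3, 2.33 and 1.67 sites had exact sign-flip p-values of 0.25, 0.5 and 0.5. Other pairings of the batch 1 libraries were not run. With batch 1 averaged the differences were 9.5, 1.75 and 2.0. With these group sizes no exact p can go below 0.05.

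Sites in all TGFβ and no vehicle lists (1) became 0 at a −log10 q of at least 5 and 0 in 200 bp summit windows, and 1 to 10 without 1 library. Sites in all lists (3) became 1 in 200 bp windows and 3 to 6 without 1 library. Sites in both batch 1 TGFβ and neither batch 1 vehicle list (10) became 2 with equal list length and 10 to 26 without 1 library. The ratio of geometric mean folds at sites called in all lists was 1.55 at Runx2 site 28 (1.15 to 2.28 without 1 library), 1.32 at Runx2 site 30 (0.985 to 1.87) and 1.24 at Cbfb site 2 (1.08 to 1.45). Leaving out 1 library unbalances the batches, and site 30 turned below 1 when TGFβ replicate 2 (0.996) or vehicle replicate 3 (0.985) was left out. The planned motif search in peaks was not run, since no sequence of the files' build is in hand.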
